A study of Xenopus laevis with 6 samples.

Results

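The genes of protein folding in the endoplasmic reticulum (ER), of the ER stress response and of the secretory coat were followed in Xenopus laevis ectoderm that had been turned towards neural crest. Members were taken by gene symbol: the chaperones and co-chaperones hspa5, hsp90b1, calr, canx, hyou1, sdf2l1, manf, dnajb9, dnajb11 and dnajc3, the pdia genes, the stress genes ern1, eif2ak3, atf6, xbp1, atf4, ddit3 and herpud1, the creb3 family, the Sec61 translocon with sec62 and sec63, and the sec22, sec23, sec24 and sec31 genes. X. laevis is an allotetraploid frog, and many of its genes have an L and an S copy (homeologs) from its 2 subgenomes. The symbols found 75 of the 49281 genes in the table. They stand for 42 symbols, 33 of them with both copies and 9 with 1 copy. Animal pole explants, cut from the prospective ectoderm of wild type embryos, were collected at stage 17. One group of 3 libraries, labelled as reprogrammed to neural crest, came from explants kept in K02288, which blocks BMP type I receptors, and CHIR, the usual short name of CHIR99021, which blocks the kinase GSK3 and so raises Wnt signalling, from stage 9 to 17. The other 3 libraries came from explants kept in the solvent DMSO over the same stages and carry an epidermal label. Clutches and numbers of explants are not in the labels, so a p-value here weighs only the library-to-library spread, part of which may be technical.

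Proteins bound for the cell surface or the outside enter the ER through the Sec61 channel, are folded there by chaperones and disulfide isomerases, and leave in vesicles coated with COPII. When unfolded protein accumulates, the sensors IRE1 (ern1), PERK (eif2ak3) and ATF6 start the unfolded protein response. IRE1 splices xbp1 RNA to yield an active transcription factor, PERK lets ATF4 protein be made and ATF4 can raise ddit3 (CHOP), and ATF6 is cut to release a factor that raises chaperone genes. The CREB3 factors are activated by the same cleavage, and in mouse and zebrafish Creb3l2 raises COPII genes such as sec23a. Gene counts record RNA levels alone: they tell neither spliced from unspliced xbp1, nor the protein made, nor the cleavage of ATF6 or CREB3 factors.

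The libraries held 35784464, 36618892 and 35187635 gene reads in K02288/CHIR explants, against 43155031, 37299139 and 33706389 in DMSO explants. Values below are read counts divided by a size factor per library, called normalized counts. Fold changes are on the log2(normalized count + 1) scale, K02288/CHIR over DMSO. Their standard error (SE) is the moderated one of limma. Its variance draws on the 3 libraries per group and on the other genes fitted. Levels of different genes are not compared, since no gene lengths were used. The labelled cell types were checked by marker genes: 13 of 14 neural crest genes were higher in K02288/CHIR explants and 13 of 14 larval epidermis genes were lower. The epidermis count was 10 by edgeR, 11 without K02288/CHIR library b or c and 14 without library a. Neural crest markers summed to between 41902 and 82795 normalized counts in K02288/CHIR explants and between 626 and 891 in DMSO explants. Those of larval epidermis summed to between 219062 and 552649 in K02288/CHIR explants and between 1302920 and 1636240 in DMSO explants. In bulk tissue of this kind, fewer cells of a type and less RNA per cell cannot be told apart.

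Of the 75 members, 72 had a mean of at least 10 normalized counts and were tested. Both copies of pdia2, a disulfide isomerase, and ddit3.S fell below that mean, with at most 13.6 normalized counts in any library. With limma and a Benjamini-Hochberg adjusted p under 0.05 over all 22932 genes tested, 39 members (54.2%) differed between the groups, against 55.8% of all genes. Of these, 23 were higher (31.9%, against 26.1% of all genes) and 16 lower (22.2%, against 29.7%) in K02288/CHIR explants. By at least 2-fold, 11 members were higher and 8 lower, against 15.9% and 24.4% of all genes. The median log2 fold was 0.05 over the members tested and 0.01 over all genes, and the groups did not overlap in 46 members, against 64.9% of all genes. The whole set of members thus changed about as often as the transcriptome did, and the directions differed by role, as described below. The split depended on scaling: under upper quartile scaling, where the all-gene median lay at 0.30, 33 members were higher and 13 lower, against 35.4% and 24.4% of all genes. Under TMM scaling the counts were 19 and 16, against 24.8% and 30.5% of all genes.

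**Figure D1:**
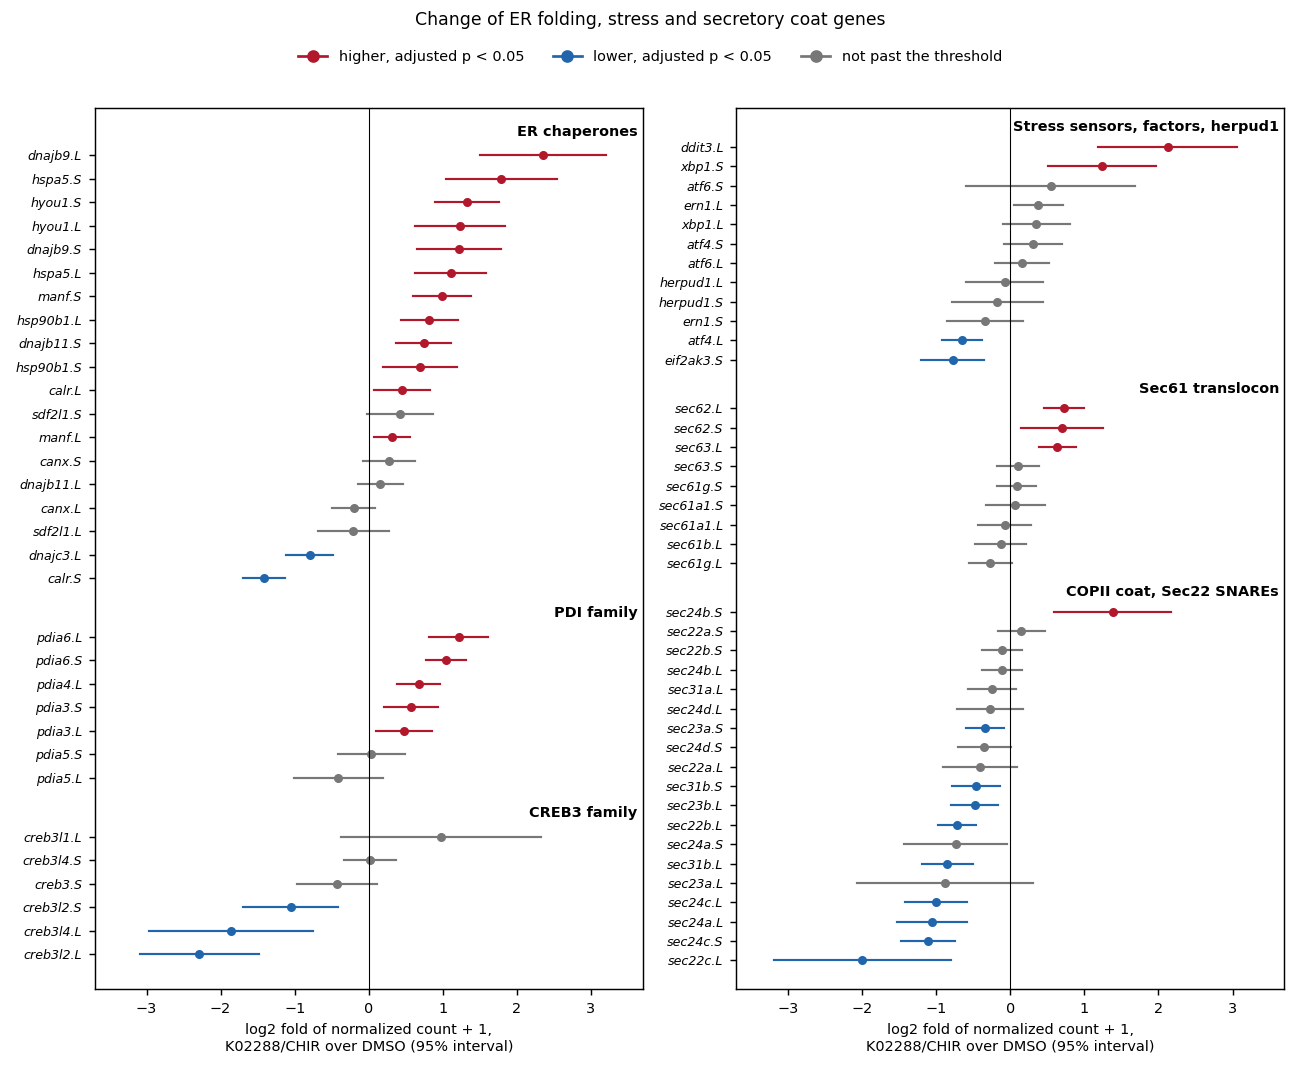
Change of each of the 72 tested genes, grouped by role. Points give the log2 fold of the normalized count + 1, K02288/CHIR over DMSO, and bars the 95% interval from limma (3 libraries per group). Most chaperones and pdia genes (labelled PDI family) lie right of 0, while most COPII genes lie left of it.

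Among the ER chaperones, 12 of 19 tested genes (63.2%, against 26.1% of all genes) were higher in K02288/CHIR explants. Another 2 were lower (10.5%, against 29.7%) and 5 did not pass the threshold. The higher count was 15 under upper quartile scaling (78.9%, against 35.4% of all genes). It was 10 under TMM scaling, edgeR or DESeq2 (52.6%, against 24.8%, 24.2% and 22.3% of all genes). Without K02288/CHIR b, K02288/CHIR c, DMSO b or DMSO c it was 9 (47.4%, against 20.1% to 22.1% of all genes). The median log2 fold of the 19 genes was 0.69. The gene hspa5 encodes BiP, the Hsp70 of the ER and the textbook marker of its stress response. Its S copy had 18768, 34455 and 38776 normalized counts in K02288/CHIR explants, against 9389.5, 10486 and 6164.5 in DMSO explants. Every K02288/CHIR library lay above every DMSO library, and library a was the lowest of the treated ones. The log2 fold was 1.79 ± 0.32 (SE; limma adjusted p = 0.00313), a 3.53-fold ratio of means. The L copy had 20683.5, 30649 and 30876 normalized counts, against 13561, 13907 and 10431 in DMSO explants (log2 fold 1.10 ± 0.20, limma adjusted p = 0.00341).

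The steepest rise among the chaperones was that of dnajb9.L, an Hsp40 of the ER (ERdj4) that works with BiP. It had 1358, 3150 and 2708 normalized counts in K02288/CHIR explants, against 493, 557 and 316 in DMSO explants, with no overlap. Its log2 fold was 2.35 ± 0.36 (limma adjusted p = 0.00169), and that of dnajb9.S was 1.22 ± 0.24 (limma adjusted p = 0.00489). The large Hsp70 relative hyou1, which exchanges nucleotide on BiP, rose in both copies. Its S copy had 10141, 9420.5 and 9615 normalized counts in K02288/CHIR explants, against 4860.1, 3993 and 2988 in DMSO explants (log2 fold 1.33 ± 0.18, limma adjusted p = 0.00111). The L copy rose by 1.23 ± 0.26 (limma adjusted p = 0.00626), and in both copies the groups were well apart. The ER Hsp90 hsp90b1 (GRP94) rose in its L copy to 16529, 21706 and 22978 normalized counts in K02288/CHIR explants, against 12618.5, 11628 and 10244 in DMSO explants (log2 fold 0.82 ± 0.16, limma adjusted p = 0.00473). Its S copy rose by 0.69 ± 0.21 (limma adjusted p = 0.0267). That last call was lost when any library other than K02288/CHIR a was left out, with limma adjusted p between 0.0509 and 0.0892.

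Smaller rises were seen for manf, a secreted ER stress protein that binds BiP, and for dnajb11, another Hsp40 partner of BiP. The S copy of manf rose by 0.99 ± 0.16 (limma adjusted p = 0.0023) and its L copy by 0.32 ± 0.10 (limma adjusted p = 0.0353). Of dnajb11, the S copy rose by 0.74 ± 0.16 (limma adjusted p = 0.00641), while the L copy had a log2 fold of 0.16 and did not pass. The call of manf.L was lost under TMM scaling, edgeR and DESeq2 and without any library other than K02288/CHIR a (adjusted p between 0.0582 and 0.104). The membrane lectin canx, calnexin, passed in neither copy: canx.L was at -0.20 (limma adjusted p = 0.2) and canx.S at 0.27 (limma adjusted p = 0.163). The copies of sdf2l1, a stress-induced cofactor of BiP, had log2 folds of -0.21 (L) and 0.42 (S), neither past the threshold. Without K02288/CHIR library a, sdf2l1.S passed (limma adjusted p = 0.0143). Under upper quartile scaling canx.S (0.0151), dnajb11.L (0.0346) and sdf2l1.S (0.023) passed as higher, all limma adjusted p.

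The chaperones that fell were calr.S and dnajc3.L. Calreticulin (calr) is the soluble lectin chaperone of the ER and a major calcium binder of its lumen. The S copy had 40209, 38455 and 34407 normalized counts in K02288/CHIR explants, against 98287, 95472 and 107338 in DMSO explants. All 3 K02288/CHIR libraries were far below all 3 DMSO libraries, and the spread within each group was small. The log2 fold was -1.41 ± 0.12 (limma adjusted p = 0.000203), a ratio of means of 0.376, and the call held in every alternative. The L copy had 95296, 121143 and 101568 normalized counts in K02288/CHIR explants, against 88665, 79279 and 66365 in DMSO explants. Its groups did not overlap, but K02288/CHIR a and DMSO a lay close, and its log2 fold of 0.44 ± 0.16 only just passed (limma adjusted p = 0.0499). That rise was lost in 9 of 15 alternatives, among them TMM scaling (0.0762), edgeR (0.079), DESeq2 (0.0775) and leaving out K02288/CHIR b (0.159) or c (0.105) or DMSO b (0.0974) or c (0.142), all adjusted p. The gene dnajc3.L (P58IPK), a BiP co-chaperone that also restrains PERK, fell too, at -0.80 ± 0.13 (limma adjusted p = 0.00243).

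**Figure D2:**
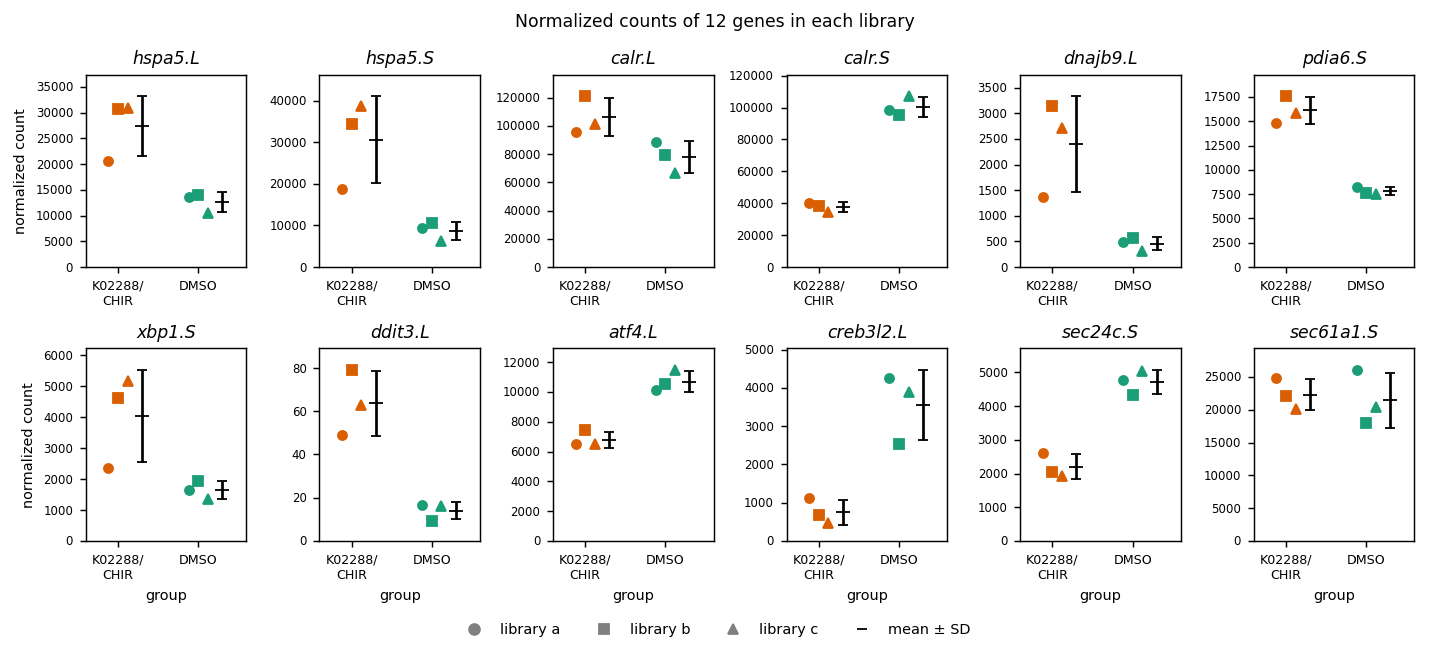
Normalized counts of 12 genes in each library. Points are libraries (circle a, square b, triangle c), bars the mean ± SD (n = 3 per group), and each axis starts at 0. The groups stand apart in every panel except sec61a1.S, and the S copy of calr is lower in K02288/CHIR explants while the L copy is higher.

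Protein disulfide isomerases form and rearrange disulfide bonds in the ER. Of those with a pdia symbol, 5 of 7 tested genes were higher (71.4%, against 26.1% of all genes). ER oxidoreductases under other names, such as erp44 and tmx4, are not in this count. They are in a further list below, where 7 of 21 were higher (33.3%) and 4 lower (19.0%). None of the 7 pdia genes was lower at a limma adjusted p under 0.05, none at an unadjusted p under 0.05 and none with edgeR or DESeq2. The shares of all genes lower were 29.7% by limma, 29.3% by edgeR and 25.9% by DESeq2, all from the same 6 libraries. The gene pdia6 (P5), which binds BiP, had 11122, 14231 and 13527 normalized counts of its L copy in K02288/CHIR explants, against 6351, 5929 and 4577 in DMSO explants (log2 fold 1.21 ± 0.17, limma adjusted p = 0.00108). Of pdia6.S there were 14854, 17608 and 15871 normalized counts, against 8253, 7654 and 7468 in DMSO explants (log2 fold 1.05 ± 0.11, limma adjusted p = 0.000452). Both copies of pdia6 were thus about 2-fold higher, with no overlap between groups. The gene pdia4 (ERp72) rose by 0.68 ± 0.12 (limma adjusted p = 0.00332). The partner of the calnexin and calreticulin lectins, pdia3 (ERp57), rose by 0.57 ± 0.15 in its S copy (limma adjusted p = 0.0176) and by 0.47 ± 0.16 in its L copy (limma adjusted p = 0.038). Both pdia3 calls were lost without K02288/CHIR c (0.062 for S, 0.0881 for L), DMSO b (0.0556 and 0.111) or DMSO c (0.0595 and 0.116), which left 3 disulfide isomerases higher, and that of pdia3.L also without K02288/CHIR b (0.108) and with TMM scaling (0.055), edgeR (0.0748) and DESeq2 (0.0709). Values of pdia5 were -0.41 in its L copy (limma adjusted p = 0.202) and 0.04 in its S copy (limma adjusted p = 0.89). With libraries of the same letter as a block, pdia5.L was lower (limma adjusted p = 0.016), as it was without K02288/CHIR a (limma adjusted p = 0.0457).

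Among the stress sensors, their transcription factors and herpud1, 2 of 12 tested genes were higher (16.7%, against 26.1% of all genes), 2 lower (16.7%, against 29.7%) and 8 not past the threshold. The transcription factor xbp1, the target of IRE1, rose in its S copy. It had 2358, 4612 and 5162 normalized counts in K02288/CHIR explants, against 1637, 1935 and 1361 in DMSO explants (log2 fold 1.23 ± 0.31, limma adjusted p = 0.0128). Library a of K02288/CHIR lay much nearer to the DMSO libraries than b and c did, without overlap. The L copy of xbp1 had 6049, 8669 and 8899.7 normalized counts in K02288/CHIR explants, against 5839, 7193 and 5348 in DMSO explants, with overlap (log2 fold 0.35 ± 0.19, limma adjusted p = 0.159). It passed without K02288/CHIR a (limma adjusted p = 0.0231).

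The stress factor ddit3 (CHOP), known for its part in ER stress-linked cell death, was scarce and rose in its L copy. It had 49.0, 79.1 and 62.9 normalized counts in K02288/CHIR explants, against 16.5, 9.32 and 16.1 in DMSO explants (log2 fold 2.13 ± 0.40, limma adjusted p = 0.00383). The groups were well apart, although these are low counts. Its usual activator atf4 fell in the L copy, to 6473, 7424 and 6511 normalized counts in K02288/CHIR explants, against 10099.4, 10500.4 and 11482 in DMSO explants (log2 fold -0.65 ± 0.11, limma adjusted p = 0.00292). The S copy of atf4 had a log2 fold of 0.31 ± 0.17 (limma adjusted p = 0.156) and passed as higher without DMSO c (limma adjusted p = 0.0469). The kinase upstream of both, eif2ak3 (PERK), had 725, 609 and 608 normalized counts in K02288/CHIR explants, against 1363, 1020.2 and 971 in DMSO explants (log2 fold -0.78 ± 0.18, limma adjusted p = 0.00937), again without overlap.

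The sensor ern1 (IRE1) had log2 folds of 0.38 ± 0.14 in its L copy (limma adjusted p = 0.0544) and -0.34 in its S copy (limma adjusted p = 0.221). The sensor atf6 had 0.15 in its L copy and 0.54 ± 0.48 in its S copy (limma adjusted p = 0.372). With libraries of the same letter as a block, atf6.S was higher (limma adjusted p = 0.0299). Its values ran in step by letter, with 409 (a), 999.6 (b) and 547 (c) normalized counts in K02288/CHIR explants, against 242.5 (a), 760.2 (b) and 391.5 (c) in DMSO explants. The ERAD scaffold herpud1, a frequent target of the stress response, had log2 folds of -0.08 (L) and -0.18 (S). Under upper quartile scaling 6 genes of this group were higher (50%, against 35.4% of all genes). The added ones were xbp1.L, atf4.S, atf6.L and ern1.L.

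In the CREB3 family, 3 of 6 tested genes (50%, against 29.7% of all genes) were lower and 3 did not pass. A count of 0 was higher by limma, at an unadjusted p under 0.05, by edgeR and by DESeq2. The shares of all genes higher were 26.1% by limma, 24.2% by edgeR and 22.3% by DESeq2, all from the same 6 libraries. The gene creb3l2 (BBF2H7) encodes an ER membrane factor known for its role in secretory cartilage cells of mouse and zebrafish. Its L copy had 1111, 678 and 475 normalized counts in K02288/CHIR explants, against 4248, 2527 and 3900.5 in DMSO explants (log2 fold -2.29 ± 0.34, limma adjusted p = 0.00149). The groups were well apart, and the call held in every alternative. The S copy fell too, at -1.06 ± 0.27 (limma adjusted p = 0.014), and missed the threshold without DMSO a (limma adjusted p = 0.0554) or DMSO b (limma adjusted p = 0.054). Of creb3l4, the L copy had 514, 232 and 156 normalized counts in K02288/CHIR explants, against 1399.6, 668 and 966 in DMSO explants (log2 fold -1.86 ± 0.47, limma adjusted p = 0.0133). The spread within each group was wide, and K02288/CHIR a came nearest to DMSO b. The S copy of creb3l4 was at 0.02 (limma adjusted p = 0.933). The values for creb3.S were -0.43 (limma adjusted p = 0.151), and for creb3l1.L, at most 25.7 normalized counts in any library, 0.97 ± 0.57 (limma adjusted p = 0.187).

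At the Sec61 translocon, the 5 tested genes of the channel did not pass, and 3 of the 4 of its partners rose, so that 3 of 9 tested genes were higher (33.3%, near the 26.1% of all genes). A count of 0 was lower by limma, at an unadjusted p under 0.05, by edgeR and by DESeq2. The shares of all genes lower were 29.7% by limma, 29.3% by edgeR and 25.9% by DESeq2, all from the same 6 libraries. The pore subunit sec61a1 had log2 folds of -0.08 in its L copy and 0.07 in its S copy, with a 95% interval of -0.33 to 0.47 for S. The small subunits had -0.13 for sec61b.L, -0.27 for sec61g.L and 0.09 for sec61g.S. The partner sec62, which helps proteins into the channel after their synthesis, had 2055, 1874 and 2011 normalized counts of its L copy in K02288/CHIR explants, against 1233, 1167 and 1187 in DMSO explants (log2 fold 0.73 ± 0.11, limma adjusted p = 0.00186). The groups lay tightly apart. The S copy of sec62 rose by 0.69 ± 0.23 (limma adjusted p = 0.0395), with overlap between K02288/CHIR a and DMSO b, and the call was lost under TMM scaling (0.0543) and without any library other than K02288/CHIR a (adjusted p between 0.0577 and 0.125). The gene sec63, whose product brings BiP to the channel, rose by 0.64 ± 0.11 in its L copy (limma adjusted p = 0.00249), and its S copy had 0.10. Under upper quartile scaling 5 genes of the translocon were higher (55.6%, against 35.4% of all genes). The added ones were the channel gene sec61g.S (limma adjusted p = 0.0201) and sec63.S (limma adjusted p = 0.0239).

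**Figure D3:**
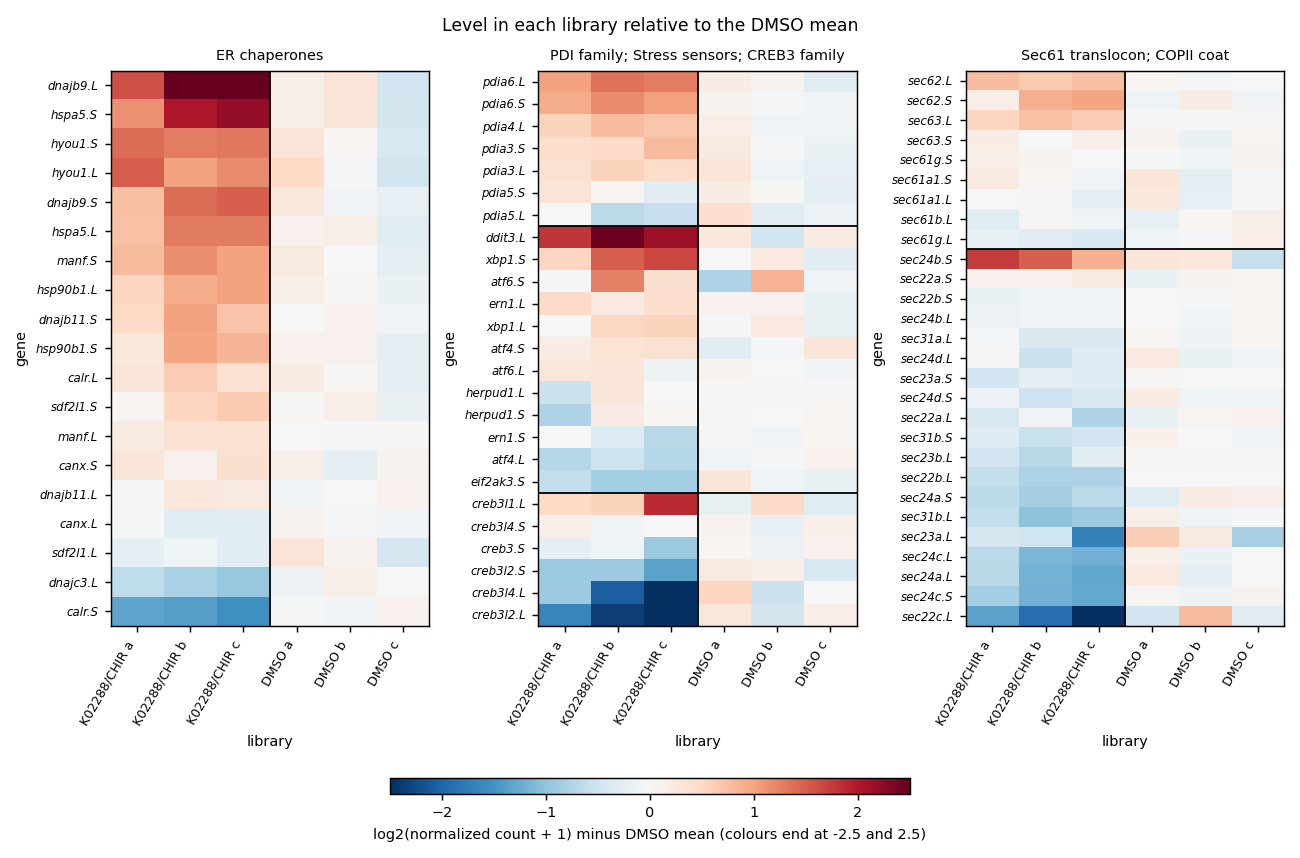
Level of each tested gene in each library, as log2(normalized count + 1) minus the mean of the DMSO libraries, with genes ordered by fold within each role. Red is above and blue below the DMSO mean. K02288/CHIR libraries b and c are the more strongly coloured of the treated ones for most chaperones and disulfide isomerases.

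The genes of the COPII coat and the sec22 genes went mostly the other way. Of 19 tested genes, 9 were lower in K02288/CHIR explants (47.4%, against 29.7% of all genes). Only 1 was higher (5.26%, against 26.1%) and 9 did not pass. The median log2 fold was -0.46. The sec24 genes, which encode the inner coat subunits that pick the cargo, fell in sec24a.L and in both copies of sec24c. The S copy of sec24c had 2624, 2045 and 1926 normalized counts in K02288/CHIR explants, against 4788, 4329 and 5037 in DMSO explants (log2 fold -1.11 ± 0.15, limma adjusted p = 0.00106). The L copy of sec24c fell by 1.01 ± 0.18 (limma adjusted p = 0.0029) and sec24a.L by 1.06 ± 0.20 (limma adjusted p = 0.00406). The groups did not overlap in any of these 3 genes.

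The outer coat subunit sec31b fell by 0.85 ± 0.14 in its L copy (limma adjusted p = 0.0026) and by 0.46 ± 0.14 in its S copy (limma adjusted p = 0.0255), while sec31a.L had -0.25 and did not pass. The inner coat GTPase activators had smaller changes: sec23b.L fell by 0.48 ± 0.14 (limma adjusted p = 0.0206) and sec23a.S by 0.34 ± 0.11 (limma adjusted p = 0.032). Of sec23a.L there were at most 217 normalized counts in any library, and its log2 fold of -0.88 did not pass (limma adjusted p = 0.174), except with libraries of the same letter as a block (limma adjusted p = 0.0247). Of these calls, 3 were lost under upper quartile scaling, with limma adjusted p of 0.28 for sec23b.L, 0.306 for sec31b.S and 0.746 for sec23a.S. That left 6 of the 19 coat and sec22 genes lower (31.6%, against 24.4% of all genes) and 2 higher (10.5%, against 35.4%). Without DMSO a, 6 were also lower (31.6%, against 25% of all genes) and 1 higher (5.26%, against 21.8%). There the same 3 calls had limma adjusted p of 0.0607, 0.0883 and 0.0827. The call of sec23a.S was also lost with DESeq2 (adjusted p = 0.0619) and without K02288/CHIR a, K02288/CHIR c, DMSO b or DMSO c (0.0642 to 0.0814). That of sec23b.L was lost without K02288/CHIR b (0.0585) or DMSO c (0.0595), and that of sec31b.S without K02288/CHIR b (0.0708), K02288/CHIR c (0.0704) or DMSO b (0.0682), all limma adjusted p.

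The SNARE sec22b, which works between ER and Golgi, fell in its L copy to 3406, 2965 and 3013 normalized counts in K02288/CHIR explants, against 5087, 5163 and 5202 in DMSO explants (log2 fold -0.72 ± 0.11, limma adjusted p = 0.00158). The L copy of sec22c, with at most 185 normalized counts in any library, fell by 2.00 ± 0.50 in log2 terms (limma adjusted p = 0.0135). The exception was sec24b.S, which had 554, 465 and 303 normalized counts in K02288/CHIR explants, against 202, 197 and 109.9 in DMSO explants (log2 fold 1.38 ± 0.33, limma adjusted p = 0.0114). Here library a was the highest of the K02288/CHIR libraries, and the groups did not overlap. The L copy of sec24b, the one with more reads, had a log2 fold of -0.12. The values of sec24a.S (-0.74, limma adjusted p = 0.0686), sec22a.L (-0.41), sec22a.S (0.15) and sec22b.S (-0.11) did not pass, although sec22a.S was higher under upper quartile scaling (limma adjusted p = 0.034), and the sec22a pair was unequal without K02288/CHIR b (limma adjusted p = 0.0459). Both copies of sec24d, the cargo adaptor known for collagen export in zebrafish, missed the threshold, with -0.28 for L (limma adjusted p = 0.246) and -0.35 for S (limma adjusted p = 0.0852). The S copy passed as lower without K02288/CHIR a (limma adjusted p = 0.0327) and with libraries of the same letter as a block (limma adjusted p = 0.0304).

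The L and S copies of a gene were compared through the difference of their log2 folds, L minus S, in 31 member pairs with both copies tested. Their change was unequal in 11 pairs at a limma adjusted p under 0.05 over 5796 pairs, against 35.1% of all pairs, so the share of 11 in 31 is near the background. The smallest adjusted p was that of calr, at a difference of 1.86 ± 0.21 (limma adjusted p = 0.00283). It was the 1 member pair whose copies passed in opposite directions, against 3.78% of all pairs, with the limit given above for calr.L. In 11 pairs both copies passed in the same direction, in 10 neither passed, and in 9 exactly 1 did, against 36.2% of all pairs. The S copy gave 26.2% of calr normalized counts in K02288/CHIR explants and 56.2% in DMSO explants. Such shares use no gene lengths, so they show a shift between the groups and not which copy is more abundant. For atf4 the difference was -0.96 ± 0.17 (limma adjusted p = 0.00938), and the S copy gave 39.2% in K02288/CHIR explants and 25.1% in DMSO explants. These 2 pairs stayed past the threshold in all 13 alternatives run on pairs, which leave out edgeR and DESeq2, and each of the other 9 missed it when at least 1 library was left out.

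Both copies of dnajb9 rose, the L copy further, by a difference of 1.13 ± 0.24 (limma adjusted p = 0.0174). For hspa5 the S copy rose further, at -0.68 ± 0.18 (limma adjusted p = 0.0335), and likewise for manf, at -0.67 ± 0.18 (limma adjusted p = 0.033). The S copy of xbp1 was also the one that rose further, at -0.88 ± 0.20 (limma adjusted p = 0.0193). Of the 11 unequal pairs the S copy had the more positive log2 fold in 8 and the L copy in 3, and among all unequal pairs the S copy had it in 52.7%. The remaining unequal pairs were creb3l4 at -1.88 ± 0.43, sec24b at -1.50 ± 0.37, sec22b at -0.61 ± 0.15, dnajb11 at -0.59 ± 0.15 and sec63 at 0.53 ± 0.15. By contrast hyou1 had -0.09 with a 95% interval of -0.50 to 0.31, and pdia6 had 0.17 with an interval of -0.21 to 0.54, so that differences within these intervals remain possible for them. The pair of creb3l2 just missed, at -1.23 ± 0.40 (limma adjusted p = 0.0569). It passed with a pseudocount of 5 (0.0482) or a mean filter of 50 (0.0492), each giving 12 unequal member pairs (36.5% and 37.8% of all pairs). It also passed without K02288/CHIR a (0.0405) or DMSO b (0.0446), all limma adjusted p.

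**Figure D4:**
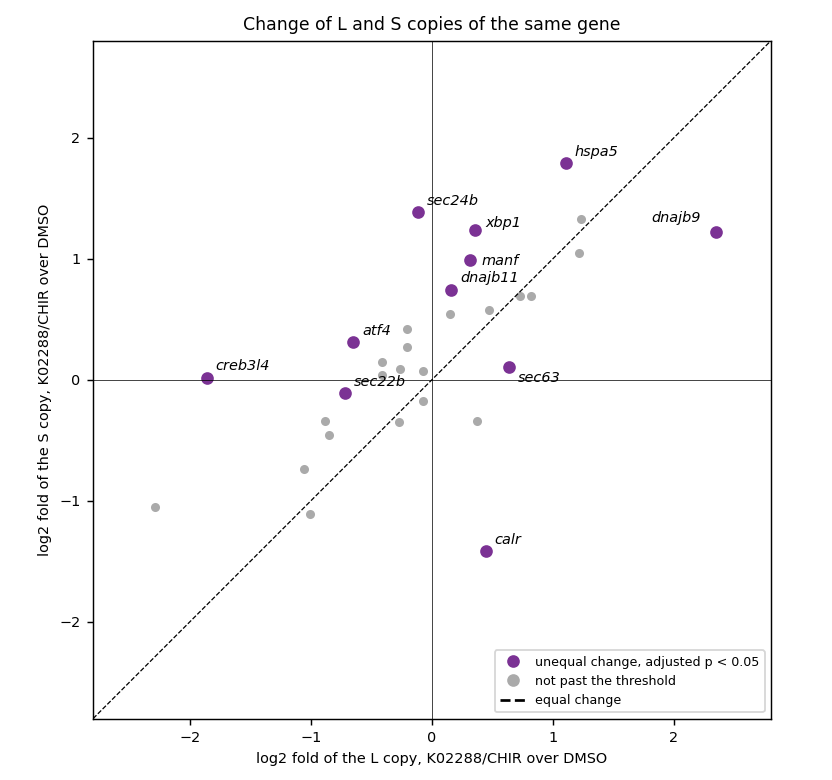
Log2 fold of the S copy against that of the L copy, K02288/CHIR over DMSO, for 31 genes with both copies tested. Purple points mark the 11 pairs with unequal change (limma adjusted p under 0.05), and the dashed line marks equal change. The point for calr lies in the lower right, with L higher and S lower, and atf4 in the upper left.

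Fewer pairs passed when a library other than K02288/CHIR a was left out, among the members and among all genes alike. The count of unequal member pairs was 11 without K02288/CHIR a (35.9% of all pairs), 4 without K02288/CHIR b (26.9%), 4 without K02288/CHIR c (23.1%), 3 without DMSO a (23.1%), 6 without DMSO b (23.7%) and 2 without DMSO c (22.3%). With libraries of the same letter as a block it was 10, as manf (0.0531) and hspa5 (0.0609) were lost and sdf2l1 (0.027) was gained, all limma adjusted p. Of reads aligned to more than 1 place, DMSO a had 11.1% and the other 5 libraries between 4.93% and 5.91%. Any such reads that matched both copies of a gene were lost to both, but how many did so is not known. Their part in the pair results was not tested. Summing the copies, a step chosen after seeing the data, left 41 tested symbols, of which 11 were higher, 11 lower and 19 not past, so that 22 passed, against 25.4%, 30.1% and, in either direction, 55.6% of 17242 symbols. Summed calr had 143692 ± 13776 normalized counts in K02288/CHIR explants and 178468 ± 7365 in DMSO explants (SD, n = 3 each), with a log2 fold of -0.32 ± 0.12 that did not pass (limma adjusted p = 0.0544). Summed hspa5 was 2.72-fold higher (log2 fold 1.42 ± 0.25, limma adjusted p = 0.0032), and summed xbp1 missed the threshold at 0.59 ± 0.22 (limma adjusted p = 0.0587).

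K02288/CHIR library a had the smallest change of the treated libraries in 19 of the 23 higher members (82.6%, against 45.4% of all higher genes) and in 12 of the 16 lower ones (75%, against 64.6% of all lower genes). Over the higher members its median log2 difference from the DMSO mean was 0.72, against 1.01 in library b and 1.00 in c. Over the lower ones it was -0.69, against -0.96 in b and -1.08 in c. Without library a, 25 members were higher and 17 lower (34.7% and 23.6%, against 25.9% and 30.7% of all genes). Leaving out each of the 6 libraries in turn gave 17 to 25 higher and 12 to 17 lower members. The shares of all genes were then 20.1% to 25.9% higher and 25% to 30.7% lower. Of the 39 calls, 29 held in every alternative in which the gene was tested, 17 of them higher and 12 lower. That is all 15 alternatives except for ddit3.L, which was tested in 14 because its mean lies below the filter of 50.

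Markers of secretory and other cell types were also compared between the groups. Goblet cell markers, among them the secreted lectins itln1 and itln2, summed to 115986 (a), 19188 (b) and 15014 (c) normalized counts in K02288/CHIR explants, against 492821 to 621182 in DMSO explants. The goblet list also holds xbp1, which is a member as well. Of the 7 tested genes of this list 3 were lower and 1, xbp1.S, was higher. The lower count was 0 of 7 by edgeR, 4 of 9 by DESeq2 and 1 to 3 of 7 as each library was left out. Small secretory cell markers summed to between 88.9 and 243 in K02288/CHIR explants and between 2151 and 2294 in DMSO explants, with all 4 tested genes lower. All 12 tested multiciliated cell genes and all 13 of ionocytes were lower too. Of the cement and hatching gland list, 4 of 8 symbols were found, and 6 of the 7 tested genes were higher, with sums of 53343 to 130195 in K02288/CHIR explants and 13366 to 20975 in DMSO explants. Neural plate genes were higher in 7 of 10, with sums of 9644 to 13802 in K02288/CHIR explants and 1199 to 1441 in DMSO explants. The defining crest markers sox10.L, sox10.S and foxd3.S were at 0 in the DMSO libraries. The sums of the notochord, muscle and endoderm lists overlapped between the groups. Library a of K02288/CHIR held the most goblet signal of the treated libraries and had the smallest change in most of the members that passed. Its sum was also the highest for larval epidermis (552649, against 219062 in b and 282539 in c), small secretory cells, multiciliated cells and ionocytes. The same held for neural crest (82795, against 41902 in b and 58508 in c). The cement and hatching gland, neural plate, notochord and endoderm sums were highest in c, and that of muscle in b. The part of these cell types in the changes of folding and coat genes was not tested.

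Genes that work beside the members were counted in 8 further lists, read against 26.1% of all genes higher and 29.7% lower in the main fit. Counts of the alternatives have other shares beside them. Under upper quartile scaling 35.4% of all genes were higher and 24.4% lower. With 1 library left out, 20.1% to 25.9% were higher and 25% to 30.7% lower. Of 29 genes of the COPI coat and of retrieval to the ER, which carries escaped ER proteins back from the Golgi, 2 were higher and 17 lower (58.6%), with a median log2 fold of -0.59. The lower ones included the KDEL receptor kdelr3.S at -1.42 and the GTPase arf1.L at -1.18, and the higher ones were copg2.S at 0.76 and kdelr2.L at 0.56. The call of kdelr2.L was lost without K02288/CHIR c (0.0526), DMSO b (0.0535) or DMSO c (0.0527), all limma adjusted p. Under upper quartile scaling 13 of these genes were lower and 4 higher, and 15 to 20 were lower as each library was left out, with 1 higher without K02288/CHIR c, DMSO b or DMSO c. Of 23 COPII partners, 3 were higher, such as mia2.L at 0.84, and 5 lower, such as tfg.S at -1.18. Upper quartile scaling turned this split to 6 higher and 2 lower, and 2 to 3 were lower without K02288/CHIR c, DMSO a or DMSO c.

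In the entry and folding steps, 10 of 33 genes of ER targeting, signal peptidase and the TRAP complex were higher and 3 lower. Both copies of srprb, the membrane subunit of the signal recognition particle receptor, rose, by 1.27 (L, limma adjusted p = 0.00077) and 0.96 (S, limma adjusted p = 0.00175), while the signal peptidase subunit sec11c.S fell by 0.96. The higher count was 19 under upper quartile scaling (57.6%, against 35.4% of all genes). It was 6, 5, 4 and 6 without K02288/CHIR b, K02288/CHIR c, DMSO b and DMSO c (12.1% to 18.2%, against 20.1% to 22.1% of all genes). Of 21 oxidoreductases outside the pdia names, 7 were higher and 4 lower, with 2 lower under upper quartile scaling or without DMSO b. The largest rise named there was agr2.L at 2.31 ± 0.36 (limma adjusted p = 0.00179), which is also a cement gland marker, so it belongs to both lists. The BiP-linked reductase dnajc10.L rose by 1.36 and the retention factor erp44.L fell by 0.61. Of 29 ER peptidyl-prolyl isomerases and collagen folding enzymes, 6 were higher and 12 lower (41.4%), with fkbp11.L at 1.87, the collagen hydroxylase p4ha3.L at 4.22 (163 reads over the K02288/CHIR libraries and 5 over the DMSO libraries, so that the size depends on the pseudocount), plod3.L at -1.29 and p3h4.L at -2.72.

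In quality control, 4 of 24 genes of N-glycosylation and glycoprotein folding were higher and 7 lower. The glucosidase subunit ganab.L was at 1.46 and the folding sensor uggt2.L at 1.22, while the calnexin relative clgn.L was at -2.93. Under upper quartile scaling 6 genes of that list were higher and 1 lower (25% and 4.17%, against 35.4% and 24.4% of all genes). The lower count was 2 to 4 without K02288/CHIR c, DMSO a, DMSO b or DMSO c. Its higher count was 2 without K02288/CHIR b, DMSO b or DMSO c, and dad1.S, an oligosaccharyltransferase subunit at -0.47, was not past under upper quartile scaling (limma adjusted p = 0.223). Of 35 genes of ER-associated degradation, 4 were higher and 10 lower, against 11 and 5 under upper quartile scaling, and 6 were lower without K02288/CHIR c, DMSO a or DMSO b, and 2 higher without K02288/CHIR b, K02288/CHIR c or DMSO b. The ubiquitin ligase syvn1.S rose by 0.51 and nploc4.L by 1.44, while man1b1.L fell by 2.27 and herpud2.L by 2.43. Of 24 genes known as targets of ATF4 or CHOP in mammals, 7 were higher and 8 lower. The serine synthesis gene psat1.L was at 2.91 and cebpg.L at 1.14, while the mTOR inhibitor ddit4.L was at -2.18 and the amino acid transporter chain slc3a2.S at -4.52, so the list had no single direction.

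**Figure D5:**
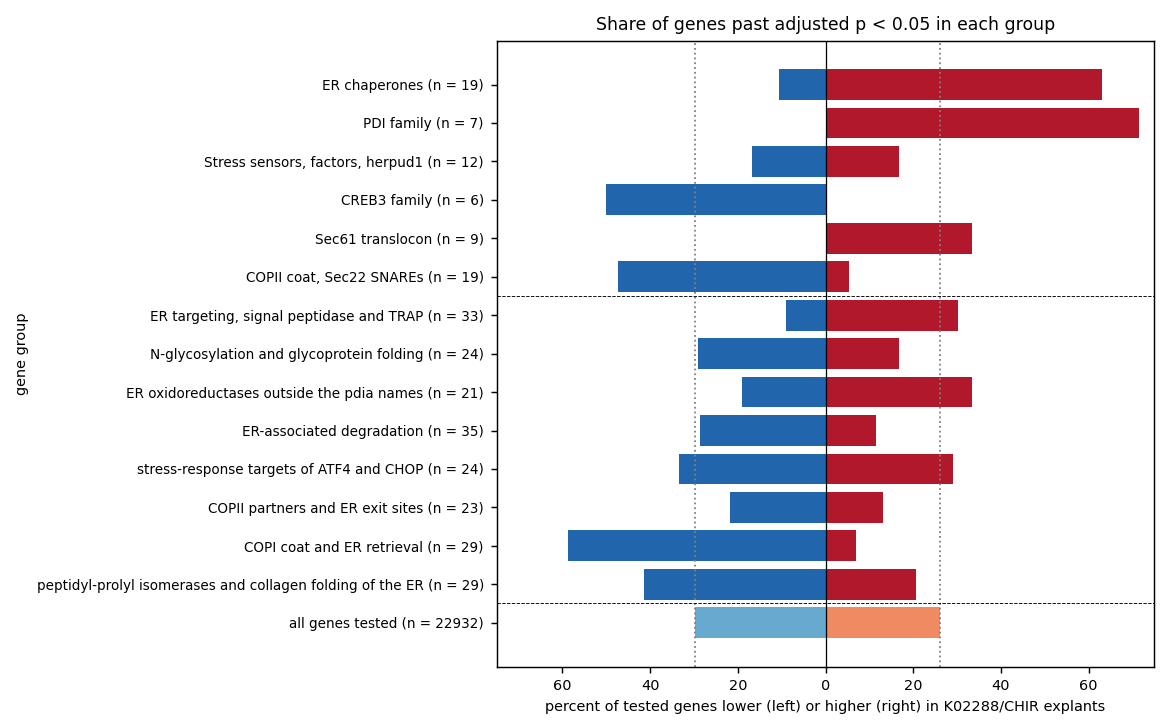
Percent of tested genes higher (bars to the right) or lower (bars to the left) in K02288/CHIR explants at a limma adjusted p under 0.05, for each role group and for 8 further lists, with all 22932 genes at the bottom. Dotted lines mark the shares of all genes, 26.1% higher and 29.7% lower. Chaperones and the pdia genes (labelled PDI family) reach 63.2% and 71.4% higher, and the COPI list reaches 58.6% lower. Oxidoreductases outside the pdia names reach 33.3% higher.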

How the data were processed

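Bulk RNA sequencing of 6 libraries was used, 3 per group as labelled. Per the submitters' processing notes DESeq was used, with no version. The sources used here name no aligner, read counter, genome build or annotation. The authors' deposited signal per library is a read count divided by a size factor: 100% of 184447 values above 0 were whole reads within 0.01 reads. Left out were 5 summary rows of the read counter. Reads in no gene made up 10.9% to 12.8% and ambiguous reads 0.439% to 0.716%. In 1 row a broken gene name was mended. No strand setting is stated, and no coordinates are given.

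Members and lists were chosen with earlier results of these data known. Members were named by a rule: in each role the 3 highest and 3 lowest called log2 folds at a mean of at least 50, both copies of core symbols such as hspa5, calr and xbp1, every unequal pair and every untested member, with the others given more briefly. From each further list, up to 2 higher and 2 lower genes with the smallest adjusted p were eligible. Genes whose mean over the 6 libraries reached 10 were tested with limma 3.58.1 with trend on log2(normalized count + 1), Benjamini-Hochberg adjusted p under 0.05. The scale understates changes of low genes. Alternatives, among them edgeR 4.0.16 and DESeq2 1.42.0 on the recovered reads in R 4.3.3, are covered in the closing section. The fits were tested on simulated data in which few genes changed and the libraries were independent. Such data cannot test the scaling or the pairing. Column letters a to c are in no label, and columns were not matched to numbered replicates. Deviations from the group mean correlated over 22932 genes between libraries of the same letter (0.326 for a, 0.402 for b, 0.319 for c). Between other letters the values were -0.228 to -0.0905. Deviations cancel within a group, so these negative values follow from the positive ones and are no separate evidence. The letters were taken to pair libraries in the fit with a block alone. The main fit, with its SEs, intervals and adjusted p, had no block and left this pairing out.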

Additional observations from a re-analysis of the deposited data

How the results depend on the processing

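Alternatives were a pseudocount of 0.5 or 5, a mean filter of 1 or 50, TMM and upper quartile scaling, edgeR, DESeq2, a replicate block by library letter, leaving out each of the 6 libraries, and, added after seeing the data, summed copies. With copies summed, 22 symbols passed, 11 of them higher, which counts symbols and not copies. Leaving out 1 library gave between 1293 and 2080 unequal pairs over all genes, and between 2 and 11 among the members. The paired fit called 24 members higher and 19 lower (28.4% and 31.7% of all genes), and changed no member's call other than those given beside the genes concerned. It called 122 genes of the further lists, against 109 without the block, with COPI at 20 lower and N-glycosylation at 9 lower. No call of a member or pair reversed direction. The log2 folds of some that did not pass changed sign, such as herpud1.L, from -0.27 to 0.15 as each library was left out. Upper quartile scaling turned the balance of several further lists, as it did that of all genes (35.4% higher and 24.4% lower). It gave 6 higher and 2 lower for COPII partners (26.1% and 8.7%). For ER-associated degradation it gave 11 and 5 (31.4% and 14.3%), and for N-glycosylation 6 and 1 (25% and 4.17%). All of these shares lay below those of all genes. Targets of ATF4 or CHOP went from 7 higher and 8 lower to 9 and 8. Of the 33 members not past the threshold, 19 passed in no alternative run for them. Promoter motifs and protein tails were not analysed here. Depth limits ddit3, creb3l1.L, sec22c.L, pdia2 and p4ha3.L, which had few reads.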
